A study of Drosophila melanogaster with 2 samples.

Results

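Among the peaks of the zinc finger and homeodomain protein Zfh2 on fly chromatin, 279 of 4344 (6.42%) had their highest point, the summit, inside the first 500 bp of a protein-coding transcript. These 279 peaks lay at 269 genes. They are called downstream peaks here, because the summit was 0 to 500 bp downstream of the nearest transcription start site (TSS) on that gene's strand. Of 493 summits at that distance from any start, 42 belonged to noncoding genes and 172 lay within 500 bp of the midpoint of a divergent coding pair, which is a pair of genes read away from each other from 5′ ends at most 500 bp apart, and both kinds were left out. The same rule applied to the other side of the start gave 1496 upstream peaks at single coding promoters, which serve here for comparison beside the whole list.

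The embryos were *Drosophila melanogaster* of mixed sex, collected whole at 0 to 24 hours, from a transgenic line that stably expressed Zfh2 fused at its C terminus to eGFP. The fusion was precipitated with an anti-GFP antibody from chromatin sonicated to 200 to 800 bp. The design is 1 group with biological replicates 1 and 2, so there was no second group to set it against and no test was made. The labels call the line an insertion for *zfh2* and name no promoter for the fusion, all tissues and stages were mixed, and no control peaks were used here. Peaks are from the list on the dm6 build that passed a threshold on the irreproducible discovery rate (IDR), and the signal value of a peak is the authors' score with no fixed scale, usable to rank peaks within a list.

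A start site is where RNA polymerase II begins a transcript. Around it lie short sequence words bound by promoter factors, and in flies broadly expressed genes tend to carry words such as the DNA replication-related element (DRE, bound by Dref), motif 1 (bound by M1BP), an E-box and motif 7, while regulated genes more often carry an initiator word at the start itself. Downstream of the start come the 5′ untranslated region (5′ UTR) and often a first intron, and fly first introns are known to hold enhancers. Zfh2 is known for roles in the developing nervous system and in the proximal wing.

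The sequences that matter for what follows are of 2 kinds, short stretches around the start that hold a promoter word near the summit and stretches of first introns at summits far from the start. The first set is shown because the word lies close to the start of a gene with a downstream peak. Each stretch is 30 bases long, read 5′ to 3′ on the strand of the gene from the dm6 assembly, and the capitals mark the word. The first 3 carry the DRE, the next 3 motif 1 and the last 3 the E-box. They are the 3 peaks of highest signal for each word, leaving out 1 chromosome arm whose sequence is not shown.
RpS15Aa, chrX:13337695-13337724, minus strand: gtccggctaacTATCGATAggcacgttgag
CG10809, chr3L:9859846-9859875, minus strand: acatatgtatgTATCGATAggccaaaacaa
eIF3f1, chr3R:4714172-4714201, minus strand: cccacccgcacTATCGATAggcccttttct
RpL30, chr2L:19009261-19009290, minus strand: atccccccgtcGGTCACACcaacacaaacg
Hacd2, chr2L:13445633-13445662, minus strand: accccttgtgtGGTCACACaggcagtgctg
CG14715, chr3R:11674225-11674254, plus strand: tgtagatctctGGTCACACtaaaccgcgag
CG9399, chr3R:9574166-9574195, minus strand: gctgtagtacccCAGCTGttgcggtgctaa
Orct, chr3R:24276364-24276393, plus strand: aaatcagtgcggCAGCTGccacttctccgc
sw, chrX:20236369-20236398, minus strand: tcgctgtcacgaCAGCTGttcacagctatc

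In *RpS15Aa* and *eIF3f1* the DRE began 8 bp before the start, and in *CG10809* it began 25 bp after it. Motif 1 began at the start itself in *Hacd2*, which encodes an enzyme of very long chain fatty acid elongation, 15 bp after it in *CG14715* and 27 bp after it in *RpL30*. The E-box began 28 bp after the start in *CG9399*, 116 bp after it in the organic cation transporter *Orct* and 4 bp before it in *sw*, the dynein intermediate chain. Only *Orct*, with its summit at 163 bp, lay beyond 100 bp in this set.

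The second set shows windows of 101 bases centred on the summits of the 3 strongest peaks over 200 bp from the start whose windows touched no exon, with the same arm left out. The capital marks the summit base. They are shown for what lies at an intronic summit.
CG31612, chr2L:21794911-21795011, minus strand: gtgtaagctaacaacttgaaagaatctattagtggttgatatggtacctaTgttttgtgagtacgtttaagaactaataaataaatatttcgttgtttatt
Fer2LCH, chr3R:30388469-30388569, plus strand: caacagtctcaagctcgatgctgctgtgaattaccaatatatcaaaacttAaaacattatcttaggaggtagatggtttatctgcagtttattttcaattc
Eip63F-1, chr3L:3928615-3928715, minus strand: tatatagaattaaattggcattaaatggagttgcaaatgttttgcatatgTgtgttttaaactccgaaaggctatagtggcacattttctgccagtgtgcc

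These windows held 27.7% G and C in *CG31612*, 33.7% in *Fer2LCH* and 35.6% in *Eip63F-1*, against 42.1% over the windows of all downstream peaks. *Fer2LCH* encodes the light chain of secreted ferritin, and *Eip63F-1* a calcium-binding protein first found as an ecdysone-induced gene.

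Downstream summits crowded against the start and then thinned out. Their median distance was 67 bp, with quartiles of 15 and 213.5 bp, and 9 summits fell on the start base itself. There were 126 summits at 0 to 49 bp, 42 at 50 to 99 bp, 37 at 100 to under 200 bp, 28 at 200 to under 350 bp and 46 at 350 to 500 bp. Counted per 100 bp, that is 252, 84, 37, 18.7 and 30.5 peaks, so the last bin held more than the one before it. Upstream peaks had their median at −119.5 bp and numbered 306, 347, 391, 320 and 132 in the mirrored bins. The downstream share of all single-promoter summits was 15.7%, with an exact (Clopper-Pearson) 95% interval of 14.1% to 17.5%. Intervals of this kind cover counting error only, and peaks are not biological replicates.

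**Figure D1:**
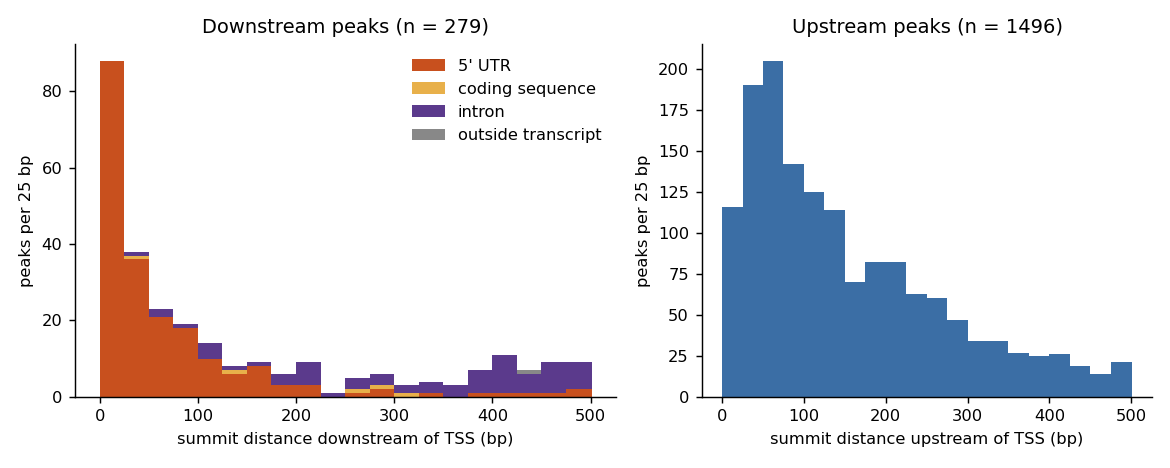
Number of peaks per 25 bp (vertical axis) by the distance in bp of the summit from the TSS (horizontal axis), for the 279 downstream peaks on the left, coloured by the annotation under the summit, and the 1496 upstream peaks on the right. Most downstream peaks within 100 bp lie in the 5′ UTR and most beyond 200 bp in an intron, while upstream peaks are spread more widely around a median of −119.5 bp.

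The annotation under the summit changed with distance. The summit lay in a 5′ UTR in 203 downstream peaks, in an intron in 70, in coding sequence in 5 and outside the transcripts of that start in 1. Within 100 bp of the start, 163 of 168 peaks were in a 5′ UTR. From 200 to 500 bp, 57 of 74 (77.0%, interval 65.8% to 86.0%) were in an intron, 13 in a 5′ UTR and 3 in coding sequence. Between these, 27 of 37 peaks at 100 to under 200 bp were in a 5′ UTR and 9 in an intron. The groups 0 to 99, 100 to under 200 and 200 to 500 bp (the far peaks) were formed after the values were seen.

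Introns took a larger share of the far summits than of the sequence past wider sets of starts. At 200 to 500 bp past all 19607 starts of protein-coding genes, 31.6% of positions were intronic and 45.7% coding. Past the 274 starts that carried downstream peaks, 47.4% were intronic and 22.4% coding, so these genes themselves had more first intron in that stretch than genes in general. The 77.0% of far summits in introns stood above both shares, and its interval held neither. The 274 starts include those with only nearer peaks, and positions closer to another start were counted too. Neither share is thus matched to the starts of the far peaks alone. Within 100 bp the positions past the same 274 starts were 92.0% 5′ UTR, against 97.0% of the summits.

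Whether a called interval reached back over the start also followed distance. It covered the start in 193 of 279 downstream peaks, against 934 of 1496 upstream peaks. Within 100 bp it did so in 164 of 168 downstream peaks, and from 200 bp on in 1 of 74. Median width was 400 bp in both classes. The counts by distance thus mostly restate the summit distances. In nearly all cases a peak within 100 bp was an interval over the start whose summit fell on the transcribed side. A peak from 200 bp on was, with 1 exception, an interval beyond it.

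How firmly a summit was downstream was read again from the summit of the call that each replicate placed over the same point. Replicate 1 had its own summit downstream in 252 of 278 peaks (90.6%) and replicate 2 in 229 of 277 (82.7%), and both did in 212 of 276 (76.8%, interval 71.4% to 81.7%). In 54 peaks the replicates fell on different sides, and in 10 both were upstream. All of these were within 100 bp of the start. At 0 to 24 bp, 35 of 86 peaks (40.7%) were downstream in both replicates, at 25 to 99 bp 66 of 79 (83.5%), and from 100 bp on all 37 and all 74. For comparison, 1407 of 1471 upstream peaks (95.6%) were upstream in both. The shares of the whole classes are not matched for distance, since a larger part of the downstream peaks lay within 24 bp. At 0 to 24 bp, 68.7% of upstream peaks (interval 59.4% to 77.0%) were upstream in both, and at 25 to 99 bp 95.1% (92.9% to 96.8%). The downstream shares at these distances were lower, with intervals of 30.2% to 51.8% and 73.5% to 90.9% that did not overlap the upstream ones.

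**Figure D2:**
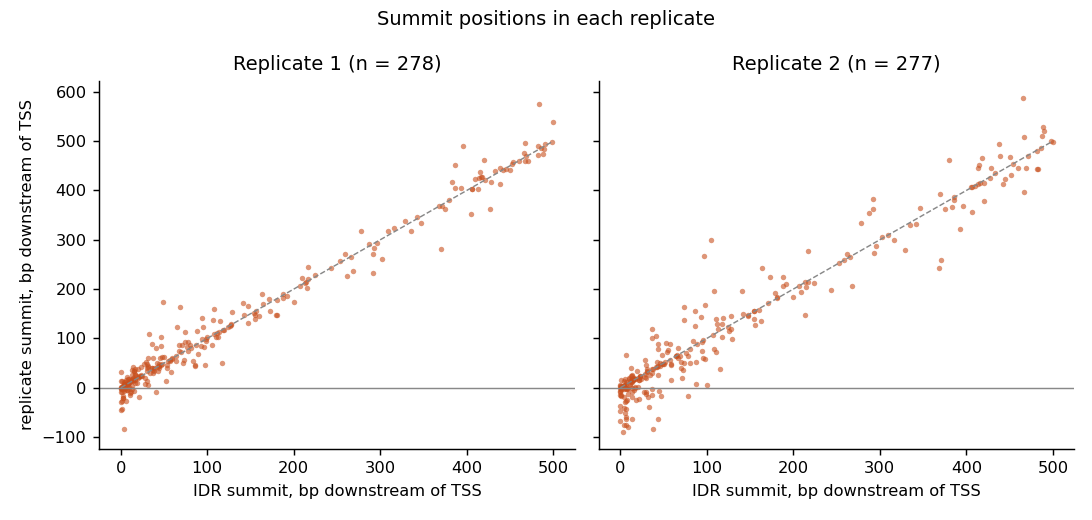
Summit position in bp downstream of the TSS in replicate 1 (left, 278 peaks) and replicate 2 (right, 277 peaks) on the vertical axis against the position in the IDR list on the horizontal axis. Each point is a downstream peak, the dashed line marks equal positions and the grey line the TSS. Points below the grey line, which are upstream in that replicate, occur only for peaks within 100 bp of the start.

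The summits of the replicates were a median of 23 bp apart, and in 207 of 276 downstream peaks they were at most 50 bp apart. The corresponding values for upstream peaks were 25 bp and 1118 of 1471. The class as a whole kept its place, with a median distance of 66 bp in replicate 1 and 64 bp in replicate 2. The spread of about 23 bp is larger than the distance of many of the peaks nearest the start, of which 88 lay within 24 bp, and the replicates shared the downstream side in 35 of the 86 of these that both covered.

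Downstream peaks had a lower median signal than upstream ones, with wide overlap. Their median signal value was 98.3, against 116.6 for upstream peaks and 113.1 for the whole list, and their range was 65.2 to 1324. In each replicate's own list the order was the same, with medians of 56.4 for downstream and 63.2 for upstream peaks in replicate 1, and 45.2 and 55.1 in replicate 2. By distance the downstream medians were 88.5, 102.7, 120.8, 102.6 and 129.1 from the nearest to the farthest bin, against 109.5, 115.8, 125.8, 123.2 and 107.7 in the mirrored upstream bins. The downstream median was thus the lower in 4 of the 5 bins, and the higher at 350 to 500 bp. When the single-promoter summits were split into 4 parts of equal number by signal, the downstream share was 13.5%, 12.2% and 14.7% in the 3 higher parts and 22.5% (interval 18.7% to 26.7%) in the lowest.

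**Figure D3:**
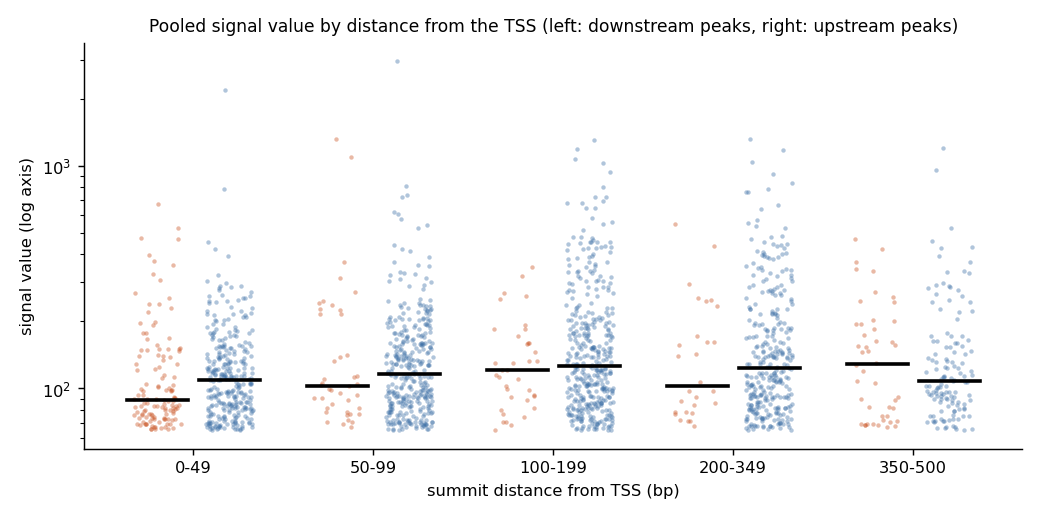
Signal value from the IDR list (log axis) by distance of the summit from the TSS in bp, with 1 point a peak and black bars at the median, downstream peaks on the left of each pair and upstream peaks on the right. Downstream peaks have the lower median in 4 of 5 bins (88.5 at 0 to 49 bp) and the higher one at 350 to 500 bp (129.1 against 107.7).

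The strongest downstream peaks were at genes of mixed function. *PNPase* (3R 31404484 to 31404841), which encodes the mitochondrial exoribonuclease polynucleotide phosphorylase, had a signal of 1324, with 776 and 549 in replicates 1 and 2. Its summit was 81 bp after the start, and 81 and 78 bp in the replicates. *GstE13* (2R 9121992 to 9122384), a glutathione S-transferase, had 1098, with 614 and 488 in replicates 1 and 2, and its summit lay at 67 bp and at 87 and 60 bp in the replicates. Both held the side of the nearest start in both libraries. Each summit also lay ahead of another start of the same gene, by 91 bp in *PNPase* and 132 bp in *GstE13*. They ranked 11 and 19 in the whole list of 4344.

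The next were less even in position. *CG4497* had a signal of 673 and a summit at 41 bp, but replicate 1 placed it 8 bp upstream and replicate 2 at 41 bp. *CG2811* had 523, with a summit at 8 bp that was at 8 bp in replicate 1 and 3 bp upstream in replicate 2. *CG17260* had 469 at 13 bp, with 36 bp in replicate 1 and 9 bp upstream in replicate 2. That summit also lay 21 bp ahead of a start of *SerRS*, a seryl-tRNA synthetase. These 3 are thus strong peaks whose side the replicates did not share.

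Others held their place. *CG18622* had a signal of 545, with its summit at 209 bp in a 5′ UTR and at 223 and 194 bp in the replicates. *Ufsp1*, a protease for the ubiquitin-like modifier Ufm1, had 476 at 31 bp, with 61 and 31 bp. *eIF3c*, a subunit of translation initiation factor 3, had 396 at 5 bp in all 3 lists. *zf30C*, a zinc finger protein, had 375 at 48 bp in all 3 lists. *Adk3*, an adenylate kinase, had 370 at 59 bp, and *CG9399* had 360 at 15 bp, with 34 and 16 bp in the replicates. The positions of *eIF3c* and *zf30C* were thus identical to the base in the IDR list and both replicates. These places are relative to the nearest start. The *Ufsp1* summit also lay 76 bp ahead of another *Ufsp1* start and of a start of *Cyp6u1*. Those of *CG18622*, *eIF3c* and *CG9399* lay 396, 76 and 210 bp ahead of another start of the same gene.

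The strongest far peaks lay in introns and in long 5′ UTRs. *CG31612* (2L 21794781 to 21795107) had a signal of 471, of 216 in replicate 1 and 252 in replicate 2, and its summit was 486 bp into the gene in all 3 lists. *Fer2LCH* (3R 30388421 to 30388717) had 438, of 242 and 203 in the replicates, at 243 bp and at 243 and 198 bp. That summit was also 311 bp ahead of another start of *Fer2LCH* and 341 bp ahead of a start of *Fer1HCH*, which encodes the heavy chain of the same ferritin. *egh*, a glycosyltransferase of glycosphingolipid synthesis, had 343 at 375 bp in an intron and a second downstream peak of 91.3 at 292 bp of another start. *Fbl6*, an F-box protein, had 423 at 500 bp, on the last base of the window and in a 5′ UTR.

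*ph-p* (polyhomeotic proximal, a subunit of Polycomb repressive complex 1) had 2 downstream peaks. The stronger (X 2137695 to 2138104) had a signal of 369 at 415 bp in the 5′ UTR, and it was 111 in replicate 1 and 276 in replicate 2, the reverse of the usual order of the replicates. The weaker had 90.1 at 13 bp. *ph-p* has a near-identical neighbouring copy, *ph-d*, and how reads from such copies were placed is not given in the sources used here, so both values are uncertain.

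At the edges of the window, the summits of *Claspin* (signal 156) and *RpS15Aa* (148) at 0 bp were just inside, and those of *snama* (110) and *CG34200* (79.0) at 1 bp upstream just outside. At the far end *Eip63F-1* (336) at 498 bp and *Fbl6* at 500 bp were just inside, and *CG5171* (92.3) at 503 bp and *Clamp* (86.8) at 508 bp just outside.

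The 4 promoter words were each in a larger share of windows near the start than far from it. Each word was sought on both strands within 50 bp of the summit. The DRE (TATCGATA) was in 10 of 168 windows at 0 to 99 bp (5.95%), motif 1 (GGTCACAC) in 7 (4.17%), motif 7 (CATCNCTA) in 11 (6.55%) and the E-box (CAGCTG) in 16 (9.52%). At 200 to 500 bp the first 3 were in 0 of 74 windows, and the E-box was in 2 (2.70%). A count of 0 there allows a share of up to 4.05% by a floor of 3 counts, and 4.86% by the exact interval. For each of the 4 words taken singly, the exact intervals at the 2 distances overlapped, with 2.89% to 10.7% and 0% to 4.86% for the DRE. Upstream peaks had these words in 5.68%, 3.28%, 4.55% and 6.35% of windows in the same order. In windows of the same length centred on all 19253 distinct protein-coding starts the shares were 4.48%, 4.68%, 3.39% and 8.77%. Those windows are centred on starts and not on summits. Centred on the starts of the downstream peaks at 0 to 99 bp, windows held the words in 10.1%, 7.74%, 7.74% and 15.5%. At the starts of upstream peaks it was 7.55%, 5.95%, 6.82% and 12.2%. DNA centred 1000 bp to either side of the downstream summits at 0 to 99 bp had the words in 0.595%, 0.298%, 0.298% and 7.14%. The summit-window share of the E-box, a word of 6 letters, thus stood close to its level there. No word of the 4 contains another.

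The 4 words were then taken as 1 set, and the peaks within 100 bp were split at 25 bp. Both choices were made after the values were seen. The share with any of the 4 words was 35.2% (31 of 88, interval 25.3% to 46.1%) at 0 to 24 bp and 6.25% (5 of 80, interval 2.06% to 14.0%) at 25 to 99 bp. On the upstream side it was 38.8% (45 of 116, interval 29.9% to 48.3%) within 24 bp and 31.1% (167 of 537, interval 27.2% to 35.2%) at 25 to 99 bp. Within 24 bp the intervals of the sides overlapped, and from 25 to 99 bp the downstream share lay below the upstream one with intervals that did not overlap. In DNA 1000 bp to either side of the downstream summits within 100 bp of the start it was 7.74% and 8.93%. Beyond 100 bp both sides were low, with 13.5%, 0% and 4.35% downstream and 9.21%, 5.63% and 2.27% upstream in the 3 further bins. The limit a count of 0 allows in the 28 downstream peaks at 200 to under 350 bp is 10.7% by the 3-count floor and 12.3% by the exact interval.

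The word shares were read again at the replicates' own summits, with the distance groups still set by the IDR summit. Replicate summits in these groups lay a median of 9 to 17.5 bp from the IDR summit. The windows therefore largely overlapped, and the repeat gives no separate support. Within 100 bp of the start the 4 words were in 24.6% of windows at replicate 1 summits and 24.7% at replicate 2 summits, against 2.70% in both for the peaks at 200 to 500 bp. Among the 101 peaks within 100 bp that were downstream in both replicates, 12 (11.9%, interval 6.29% to 19.8%) held a word. Of all 168 peaks within 100 bp, which include these 101, 36 did (21.4%, interval 15.5% to 28.4%). The intervals overlapped, and the subset was formed after the values were seen. Word share and agreement of the replicates on the side both changed with distance, so a link between the 2 cannot be told apart from distance. Of the 74 starts of the far peaks, 13 (17.6%) had a word within 50 bp of the start itself, away from the summit. The E-box was at 9 of the 74 (12.2%) and each of the other words at 2 of the 74 (2.70%). At the starts of peaks within 100 bp the E-box was at 15.5% and the other words at 7.74% to 10.1%. For each word the exact intervals of the far and near starts overlapped, so these counts do not settle whether the far starts had fewer.

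**Figure D4:**
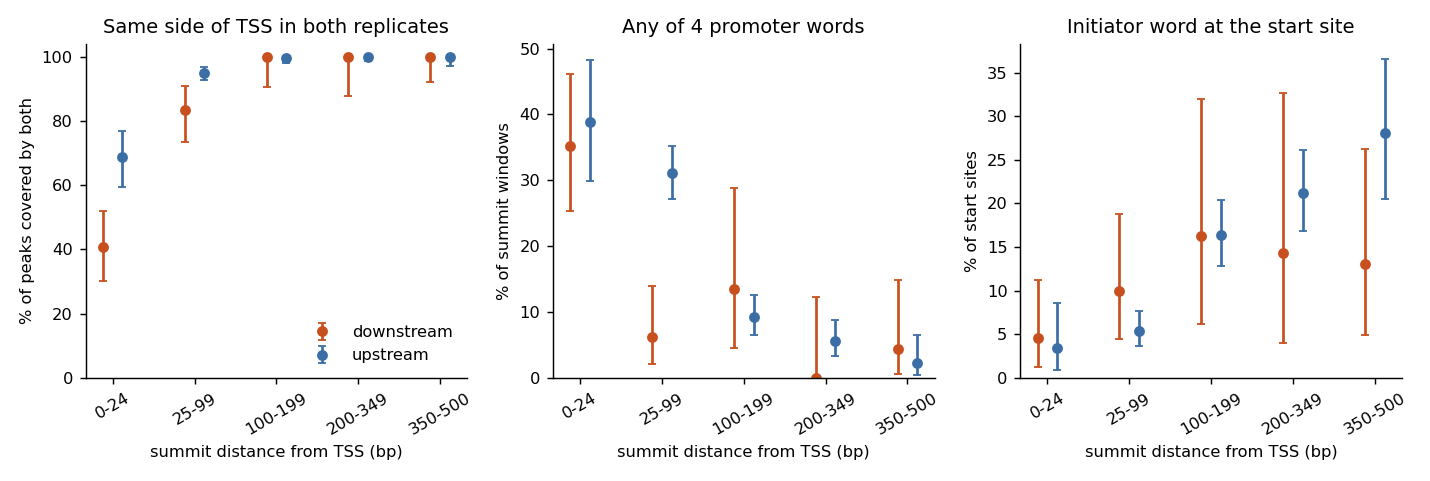
Shares by distance of the summit from the TSS in bp, for downstream (orange, left of each pair) and upstream peaks (blue), with exact 95% intervals that cover counting error only. From left to right, the percentage of peaks on the same side of the TSS in both replicates, the percentage of summit windows with any of 4 promoter words, and the percentage of start sites with the initiator word within 10 bp. Within 24 bp the word shares of the sides are close (35.2% and 38.8%), and at 25 to 99 bp they part (6.25% and 31.1%). The split at 25 bp was made after the values were seen.

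Where the words stood was compared within 100 bp of the summit, by the middle of the word on the gene's strand. In downstream peaks within 100 bp of the start, the 24 DRE matches had their median 12.5 bp before the start, and 6 of them lay downstream of it. Of 16 motif 1 matches 9 (56.3%) lay downstream of the start, of 38 E-boxes 22 (57.9%) and of 19 motif 7 matches 12 (63.2%). Around upstream summits these shares were 14.7% for the DRE, 26.3% for motif 1, 32 of 200 for the E-box and 28.3% for motif 7. Because the windows follow the summit, windows of downstream peaks hold more transcribed sequence to begin with.

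The initiator word TCAGT, sought on the gene's strand within 10 bp of the start, was rare at the peaks nearest to it. It was at 4 of 88 starts (4.55%) with a summit at 0 to 24 bp downstream, 8 of 80 at 25 to 99 bp, 6 of 37 (16.2%) at 100 to under 200 bp and 10 of 73 (13.7%) at 200 to 500 bp. Upstream peaks ran from 3.45% within 24 bp through 5.40%, 16.4% and 21.3% to 28.0% at 350 to 500 bp. Over all 19252 protein-coding starts whose gene strand was searched it was 13.1%. This measure was added after the word shares were seen.

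Of the other words, the forkhead word TGTTTAC was in 9 of 168 windows (5.36%) within 100 bp of the start and in 0 of 74 beyond 200 bp, against 3.01% of upstream windows and 1.79% of the flanks, with overlapping intervals for near, far and upstream windows. The TATA box (TATAAA) was in 7.74% and 12.2% of these windows, against 13.9% upstream, and the homeodomain core TAATTA in 4.76% and 4.05%, against 5.61% upstream. The Zelda word CAGGTAG was in none of the 168 or the 74, which allows up to 1.79% and 4.05% by the 3-count floor and 2.17% and 4.86% by the exact intervals. The GAGA word GAGAGAG was in 1 window of each. These words and the others searched, which included the splice donors GGTAAGT and GGTGAGT, also gave overlapping intervals for near, far and upstream windows. The G and C content of summit windows was 42.1% for downstream peaks, against 38.9% for upstream peaks and 43.8% in the downstream peaks' flanks. It was 42.7% and 40.9% at the summits of replicates 1 and 2, against 40.0% and 37.8% for upstream peaks.

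Many downstream summits were upstream of a further start. In 105 of 279 peaks (37.6%) another start lay ahead within 500 bp, of the same gene in 88, of another gene in 35 and of another protein-coding gene in 26. This was so for 84 of 168 peaks within 100 bp and 8 of 74 beyond 200 bp, and part of that gap follows from the rule, since a further start must be more distant than the nearest one. Peaks with a further start ahead had a median signal of 114.7, against 92.9 for the 174 without. Among the latter 34.5% were intronic and 48.3% within 100 bp of the start, against 9.52% and 80.0% with a further start. The share downstream in both replicates was 73.5% with a further start and 78.7% without, with overlapping intervals.

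A gene seldom had peaks on both sides of the same start. There were 12 such pairs among the 279 downstream peaks, and the downstream one was the higher in 4. The median signal in these pairs was 81.8 downstream and 143.2 upstream. *Sqor*, a sulfide oxidation enzyme of mitochondria, was the clearest of the 4, with 328 at 12 bp downstream and 93.2 at −492 bp. *Dp*, the dimerization partner of E2F, ran the other way, with 108 at 420 bp downstream in an intron and 471 at −202 bp. *Sqor* was picked from the pairs after its values were seen. Over all starts of a gene, 52 of the 269 genes (19.3%) had an upstream peak too, against 9.7% of all protein-coding genes.

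Besides *ph-p* and *egh*, there were 7 genes with several downstream peaks. *Amun* had 3, with signals of 217 at 89 bp, 113 at 95 bp and 65.7 at 11 bp from different starts. Replicate 1 placed the last of these at −11 bp. *eIF3h*, another subunit of initiation factor 3, had 293 at 266 bp in an intron and 220 at 20 bp, on 2 separate intervals, and the replicates placed the first at 266 bp in both. These summits also lay 329 and 83 bp ahead of a start of another gene, *senju*. *Trpm*, a cation channel, had 322 at 156 bp and 133 at 173 bp of a different start. *Ada2b*, a subunit of histone acetyltransferase complexes, had 153 at 454 bp and 71.7 at 253 bp, and *CG1737* had 83.4 at 4 bp and 68.0 at 214 bp. The nearer *CG1737* summit was at −1 bp in replicate 1. In *Acsl*, an acyl-CoA synthetase, and *woc*, a zinc finger protein, both peaks shared 1 call of replicate 2, so only replicate 1 separated them.

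On the chromosome arms the downstream peaks were spread much like the others. The X held 65 of 279 (23.3%, interval 18.5% to 28.7%), against 17.2% of upstream peaks and 19.1% of the whole list. Arms 2L, 2R, 3L and 3R held 49, 58, 54 and 52, and chromosome 4 held 1. The interval for X covered the share of the whole list and overlapped that of upstream peaks (15.4% to 19.3%).

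The genes were counted against 22 lists of gene groups. Over all 13945 protein-coding genes, 269 (1.93%) had a downstream peak and 1352 (9.7%) an upstream peak at a single promoter. Of 93 cytosolic ribosomal protein genes, 12 (12.9%, interval 6.85% to 21.5%) had a downstream peak and 28 (30.1%) an upstream one. Of 56 translation factor genes, 7 (12.5%, interval 5.18% to 24.1%) had a downstream peak and 9 (16.1%) an upstream one. These lists were chosen with results of these data known, so the counts are a description of the peaks.

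All 12 ribosomal protein summits were within 58 bp of the start, and 10 were in the 5′ UTR. Both replicates were downstream in 6 of the 12. *RpL30* had a signal of 254 at 10 bp, with 145 in replicate 1 and 108 in replicate 2, and held 11 and 18 bp in the replicates. *RpL26* had 238 at 58 bp in an intron, with 122.7 and 116 in the replicates, at 32 and 15 bp. *RpS4* had 200 at 7 bp, with 117 and 84.4, but both replicates placed it upstream, by 4 and 60 bp. The lowest of the 12 was *RpS2* with 71.5 at 6 bp. The 8 peaks at translation factors were downstream in both replicates, with *eIF3c* first (396, with 199.3 and 194.5 in the replicates), *eIF3h* next, and *pAbp*, the poly(A)-binding protein, with 203 at 482 bp in an intron.

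Of 22 insulator and interband protein genes, 3 (13.6%, interval 2.91% to 34.9%) had a downstream peak, against 1.93% of all genes, and 3 an upstream one. That was the highest downstream share of the 22 lists, on a count of 3 genes. A promoter peak of any kind was at 8 of these genes (36.4%), against 17.5% of all genes. *Trl*, which encodes GAGA factor, had 350 at 119 bp, with 219 and 132 in the replicates and positions of 116 and 141 bp. *pita*, an insulator zinc finger protein, had 133 at 69 bp, and *BEAF-32*, a boundary element factor, had 97.8 at 293 bp in its coding sequence. In the Polycomb and trithorax list 1 of 27, *ph-p*, had a downstream peak, against 6 with an upstream one.

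Metabolic and protein turnover lists gave intervals that covered the share of all genes. There were 3 of 88 oxidative phosphorylation genes, *ATPsynB* (99.7 at 9 bp), *ND-B22* (98.3 at 11 bp) and *UQCR-14* (67.3 at 18 bp), and 2 of 48 proteasome genes, *Rpt1* (97.4 at 0 bp) and *Rpn10* (84.2 at 32 bp). In each of these peaks the replicates did not share the side. Replicate 1 was at −15 bp in *ND-B22*. Replicate 2 was at −2 bp in *ATPsynB*, −24 bp in *UQCR-14*, −8 bp in *Rpt1* and −18 bp in *Rpn10*. The lists of chaperones (*Hsp110*, 1 of 42), pausing and elongation factors (*hyx*, a Paf1 complex subunit, 1 of 20), splicing (*tra2*, 1 of 42), cell cycle and DNA replication (*Dp*, 1 of 64) and kinases of growth control (*mats*, a Hippo pathway cofactor, 1 of 24) had a single gene each. The *tra2* summit, at 44 bp in the IDR list, was at −63 bp in replicate 2. The cell cycle list had 16 of 64 with an upstream peak.

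No downstream peak was found at the genes on the lists of mitochondrial ribosomal proteins (73 genes matched by symbol), aminoacyl-tRNA synthetases (32), Mediator, RNA polymerase II and general factors (64), Rab, Arf and Sec trafficking (92), autophagy and V-ATPase (53), segmentation genes (20), Hox genes (8), neuronal identity genes (32), wing hinge and leg patterning genes (18), chemosensory receptors (180) or cuticular proteins (117). A count of 0 allows a share of up to 1.67% in the longest of these lists and 37.5% in the shortest by the 3-count floor, and the exact intervals of all of them, with an upper limit of 2.03% for the chemosensory receptors, covered the 1.93% of all genes. Outside the matched symbols, *tko*, which encodes mitochondrial ribosomal protein S12, had a downstream peak of 89.4 at 7 bp, and it is named here after its value was seen. The trafficking list had 10 upstream peaks and the Mediator and polymerase list 9.

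**Figure D5:**
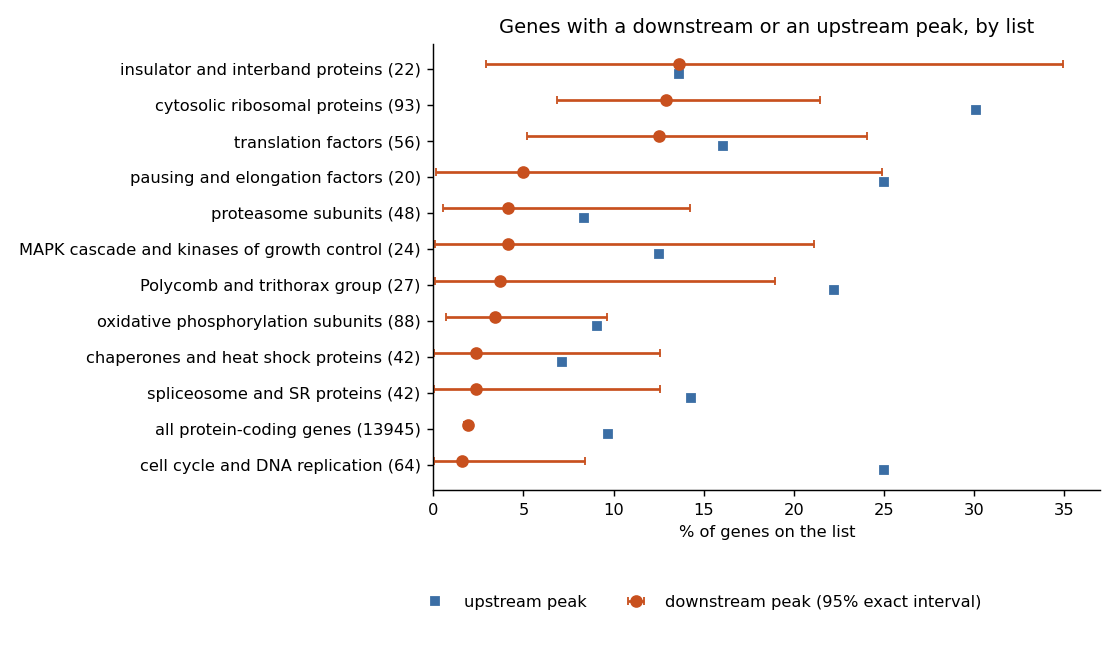
Percentage of genes on a list (horizontal axis) with a downstream peak (orange circles, exact 95% interval covering counting error only) and with an upstream peak (blue squares) at a single promoter, for the lists with at least 1 downstream peak and for all protein-coding genes. Numbers in brackets are genes on the list. Insulator and interband proteins (13.6%), cytosolic ribosomal proteins (12.9%) and translation factors (12.5%) have intervals above the 1.93% of all genes. Promoter peaks of any kind are also more frequent on these lists (36.4%, 66.7% and 39.3%, against 17.5% of all genes).

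The IDR list kept a smaller share of downstream than of upstream calls. Of all 30000 calls of the pooled replicates, 14.5% were in the IDR list. Of 2736 pooled calls that met the same rule downstream 279 (10.2%) were in it, against 1496 of 4386 upstream calls (34.1%). Within 100 bp of the start the downstream share kept was 15.7% and from 200 to 500 bp 6.29%.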

How the data were processed

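ChIP-seq of Zfh2-eGFP was deposited as peak lists on dm6 and dm3. Calls were made by the authors against a control alignment, and the IDR list was derived from relaxed lists of replicate 1, replicate 2 and both pooled, per the deposited file descriptions. The name and version of the aligner and of the peak caller were not given in the sources used here. The deposited signal value in column 7 is a score with no fixed scale, and the summit offset in column 10 is in bp. Read depth is unknown, so precision was given as exact 95% intervals on counts of peaks. No p-value was computed, since 2 libraries of 1 group allow no contrast.

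Summits were set to the start plus the offset and assigned to the nearest transcript start of Ensembl release 115 (18164 genes on the main arms, same assembly as dm6). In 5 peaks 2 starts tied. Features were read over the transcripts of that start, a 5′ UTR before coding sequence before an intron. Words were sought within 50 bp of summits, and a floor of 3 counts was used where a count was 0. Replicate summits were those of calls covering the IDR summit. Python 3 with pandas and scipy was used, and the steps were tested on simulated positions and windows. The dm3 lists were not used.

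The members, lists and words were chosen with earlier results of these data known. Named genes were those of the 15 highest peaks, the 3 highest of each distance bin, up to 3 of each list, genes with 2 or more peaks and the peaks at the window's edges. Alternatives were only the peaks above the median signal, each replicate alone, other windows and other start rules.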

Additional observations from a re-analysis of the deposited data

How the results depend on the processing

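No paired analysis was possible because the result comes from no test and there is 1 group. Of 122 values recomputed under another setting, 86 stayed within 1 SD of the replicates, within the 95% interval or within 1.5 times the reported count, and 36 moved, of which 11 were word shares. Keeping the peaks above the median signal gave 116 downstream peaks at 112 genes, a downstream share of 12.9%, a median distance of 110.5 bp, a median signal of 185.1, 33.6% of summits in introns and 85.3% downstream in both replicates. Leaving out each replicate in turn gave shares of 12.3% to 20.2%, 18.6% to 29.8% of summits in introns and median signals of 50.89 to 50.91, which are on each replicate's own scale, and the share downstream in both replicates then has no value. A window of 0 to 250 bp gave a median distance of 37 bp, 9.30% in introns and 69.8% downstream in both replicates. Starting at 25 bp gave a share of 11.3%, a median of 128 bp, 36.6% in introns and 93.2% downstream in both replicates. With gene 5′ ends as the starts the share was 18.7% and the median 92.5 bp. With divergent pairs kept there were 451 peaks at 436 genes, a median of 49 bp and 18.8% in introns. The cause of these shifts was not tested. Among words, starting at 25 bp lowered the share with the DRE to 1.05% (3.58% as reported) and with motif 1 to 0.524% (2.87%), and keeping the peaks above the median signal lowered both to 0.862%. Depth is unknown, and summit positions are limited by the 23 bp between replicates.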

Other observations

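The weaker calls of the pooled replicates, most of which the IDR list leaves out, held more downstream summits. By rank of signal among all 30000 pooled calls, the downstream share of single-promoter summits was 14.1% in ranks 1 to 1000, 12.9% in ranks 1001 to 2000, 16.8% in ranks 2001 to 4000, 29.7% in ranks 4001 to 8000, 46.6% in ranks 8001 to 16000 and 54.3% in ranks 16001 to 30000. The median distance of these summits from the start was 97, 114.5, 49.5, 70.5, 157 and 213 bp in the same order, and 51.7%, 46.3%, 68.4%, 58.3%, 39.0% and 28.2% of them lay within 100 bp. The pooled list holds true sites and background together, per the deposited file descriptions, and the part of background in these shares was not tested.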
